A study of Mus musculus with 9 samples.

Results

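The genes studied here are the 10 genes Ptgs1, Ptgs2, Ptges, Ptges2, Ptges3, Ptgds, Ptger2, Ptger4, Ptgfr and Hpgd, which make, sense or break down prostaglandins. They were chosen by symbol from the 52025 genes listed in the RNA-Seq tables of mouse ovaries. The ovaries came from female Kunming mice, an outbred stock, at postnatal day (PD) 14, 15 or 16, the days around the initial formation of the follicular antrum, the fluid-filled space of a growing follicle. The animals carried no allele or treatment named in the sources, and each day was represented by 3 libraries, which the study describes as independent ovaries. The comparison asks whether the prostaglandin genes differed among these days. Levels are FPKM, fragments per kilobase of transcript and per M mapped fragments, so that genes can be compared per length.

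Prostaglandins are short-lived lipids made from arachidonic acid, which phospholipases release from membranes. A cyclooxygenase (Ptgs1 or Ptgs2) turns it into prostaglandin H2, and terminal synthases then make prostaglandin E2 (Ptges, Ptges2, Ptges3), D2 (Ptgds) and other products. The products act on G-protein-coupled receptors such as EP2 (Ptger2), EP4 (Ptger4) and FP (Ptgfr), and 15-hydroxyprostaglandin dehydrogenase (Hpgd) starts their inactivation. In the adult ovary the luteinizing hormone surge induces Ptgs2 in granulosa cells, and prostaglandin E2 acting through EP2 serves the expansion of the cumulus around the oocyte, while prostaglandin F2 alpha drives regression of the corpus luteum.

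Among these 10 genes, Hpgd alone passed the test across all genes, and it rose from PD14 to PD16, a call lost under some alternatives given with its values. The promoters of Hpgd, of Ptgs2, the least abundant of the 10 genes, and of Ptges, an abundant synthase, are shown so that the gene that rose can be set beside a scarce and an abundant one. The 3 windows run from 250 bases before to 50 bases after the start of each gene in RefSeq (GRCm38.p6). That of Hpgd is chr8:56294302-56294601 on the plus strand, that of Ptgs2 is chr1:150099781-150100080 on the plus strand, and that of Ptges is chr2:30903248-30903547 on the minus strand. In GENCODE M21 the Ptges gene has 4 transcripts and reaches upstream to 30929863, so its window lies within that gene model. Any start further upstream is not shown. Each window is written 5′ to 3′ along the gene, and capitals mark every match on either strand to the motifs searched.
Hpgd: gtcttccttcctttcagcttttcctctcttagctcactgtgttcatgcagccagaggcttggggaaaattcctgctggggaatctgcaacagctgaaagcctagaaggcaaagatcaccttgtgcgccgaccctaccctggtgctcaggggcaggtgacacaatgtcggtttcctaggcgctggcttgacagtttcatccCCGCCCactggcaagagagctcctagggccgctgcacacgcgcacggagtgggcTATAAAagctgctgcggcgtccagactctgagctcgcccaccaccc
Ptgs2: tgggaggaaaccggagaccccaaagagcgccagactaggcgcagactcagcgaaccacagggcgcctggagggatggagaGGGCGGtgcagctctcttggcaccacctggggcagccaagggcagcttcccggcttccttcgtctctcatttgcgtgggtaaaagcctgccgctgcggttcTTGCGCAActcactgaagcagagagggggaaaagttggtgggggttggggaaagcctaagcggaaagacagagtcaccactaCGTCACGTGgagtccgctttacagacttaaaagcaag
Ptges: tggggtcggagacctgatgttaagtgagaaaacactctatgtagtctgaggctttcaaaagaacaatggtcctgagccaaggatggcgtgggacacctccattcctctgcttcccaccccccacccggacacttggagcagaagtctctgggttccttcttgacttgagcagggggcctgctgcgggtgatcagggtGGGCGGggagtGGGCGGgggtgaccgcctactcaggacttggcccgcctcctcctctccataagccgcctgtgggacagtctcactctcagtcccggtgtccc

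The motifs searched were the cyclic AMP response element TGACGTCA and its shorter core TGACG, the E-box CACGTG, the C/EBP motif TTGCNNAA, the NR5A motif CAAGGTCA, the TATA box TATAAA, the GC box GGGCGG, the CCAAT box CCAAT and the AP-1 motif TGANTCA. The Hpgd window held TATAAA at position 5 from the RefSeq start and a GC box on the opposite strand at -50. GENCODE M21, the annotation of the gene coordinates below, starts Hpgd further downstream, at 56294585. By that start the TATAAA lies upstream of the gene and not within its transcript. The Ptgs2 window held a C/EBP motif at -69, a GC box at -170, and the core element TGACG on the opposite strand at 14, which overlapped an E-box at 17. The Ptges window held GC boxes at -53 and -42. Of all 32851 RefSeq promoters of this length, 13.6% held TATAAA, 20.8% TGACG, 7.15% CACGTG, 10.8% TTGCNNAA and 35.7% GGGCGG. The remaining motifs had no match in these 3 windows, and 1.79% of promoters held TGACGTCA, 1.56% CAAGGTCA, 37.4% CCAAT and 7.81% TGANTCA.

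The libraries held 20.4 to 28.7 M mapped fragments, as derived from the steps between low FPKM values, and 14590 to 14923 genes above 1 FPKM. Granulosa cells are given as the source in the labels, and ovary as the tissue. Granulosa markers such as Amh and Foxl2 were abundant, with a summed level of 2560 to 3370 FPKM over 8 genes. Oocyte markers summed to 1030 to 1530 FPKM over 8 genes, theca and interstitial markers to 1160 to 2230 over 7, stromal markers to 388 to 502 over 6 and endothelial markers to 54.8 to 66.0 over 5. The material therefore held other ovarian cells besides granulosa cells and is called ovary here. In such mixed tissue, fewer cells of a type and less RNA per cell cannot be told apart.

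The 10 genes spanned a wide range of levels. Ptges3 averaged 70.6 FPKM over the 9 libraries, Ptges 63.0 and Hpgd 39.7, and these 3 genes were above 95.7%, 95% and 91.3% of the 15495 genes tested. Ptges2 averaged 5.47 FPKM, Ptgds 4.27, Ptger2 2.6 and Ptger4 1.94. Ptgs1 averaged 0.635 FPKM, Ptgfr 0.238 and Ptgs2 0.0377, all under the level of 1 FPKM that a gene had to exceed on at least 1 day to be tested, so that 7 of the 10 genes were tested. Neighbours in this order were separate over all libraries except for 3 pairs whose ranges overlapped. Ptges3 was above Ptges in 7 of 9 libraries, Ptges above Hpgd in 9 of 9, and Ptges2 above Ptgds in 8 of 9. Both cyclooxygenases thus stood far below the abundant prostaglandin E synthases, and the FPKM of Ptges was 84.2 to 161 times that of Ptgs1 in the same library.

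**Figure D1:**
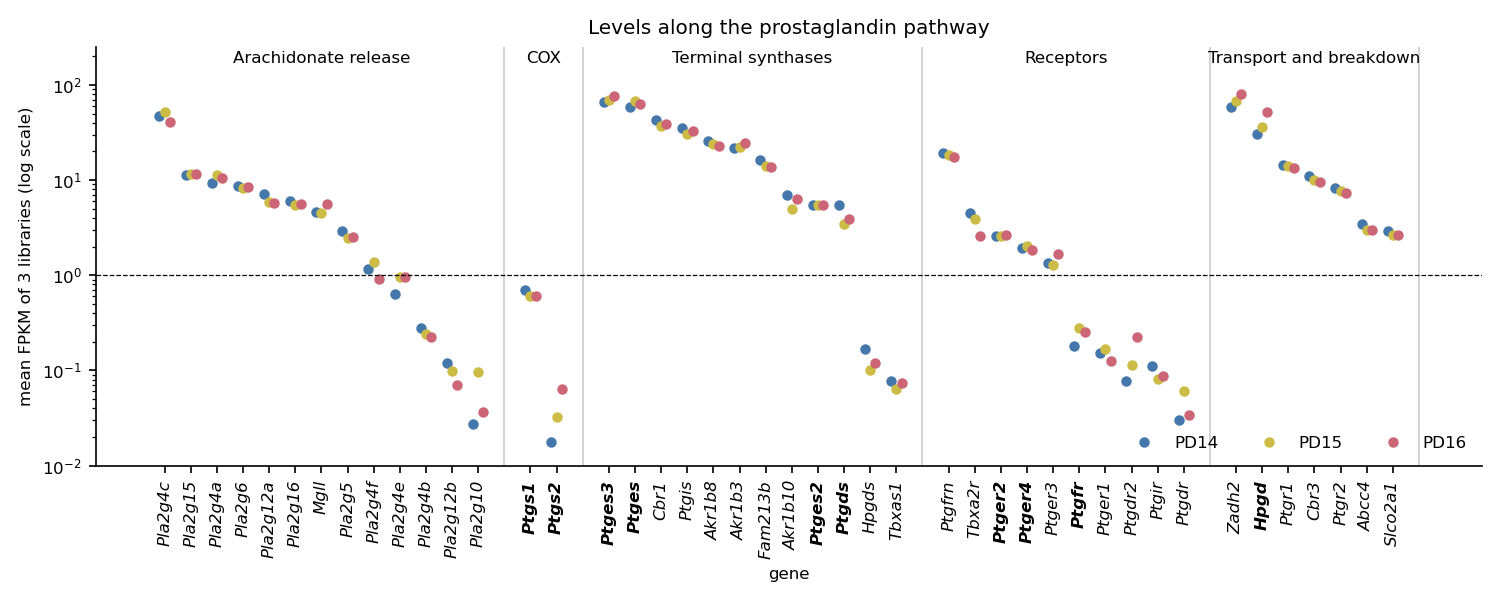
Mean FPKM of 3 libraries on each day, on a log axis, for the 10 genes (bold) and the other pathway genes, ordered by level within each step of the pathway, where COX stands for the cyclooxygenases and the dashed line marks 1 FPKM. Ptges3 (mean 70.6) and Ptges (63.0) lie far above Ptgs1 (0.635) and Ptgs2 (0.0377), and the day means of most genes lie close together.

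The cyclooxygenases were scarce on every day. Ptgs1 (chr2:36230426-36252272, plus strand, mm10 coordinates of GENCODE M21 here and below), the constitutive enzyme, was at 0.641, 0.714 and 0.720 FPKM on PD14, 0.455, 0.703 and 0.663 on PD15, and 0.562, 0.578 and 0.678 on PD16. The 3 days overlapped, and the lowest library was on PD15. These values rested on 45 to 74 fragments a library. In the limma fit without the level filter, the difference of log2(FPKM + 1) was -0.08 for PD15 against PD14 (95% interval -0.27 to 0.11, adjusted p = 0.787) and -0.08 for PD16 against PD14 (-0.26 to 0.11, adjusted p = 0.734).

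Ptgs2 (chr1:150100031-150108227, plus strand), the inducible cyclooxygenase, was near the limit of detection. It was at 0.0535, 0 and 0 FPKM on PD14, 0.00858, 0.0275 and 0.0608 on PD15, and 0.0550, 0.0481 and 0.0858 on PD16. The highest PD14 library lay among those of PD16, so that the days overlapped, and the 2 libraries listed at 0 were both from PD14. For these, 3 fragments would have been worth 0.0271 and 0.0322 FPKM, the upper limits that a count of 0 allows for counting error alone. The fragments behind the values summed to 6 on PD14, 12 on PD15 and 21 on PD16 over 3 libraries each. No difference was detectable at this depth (0.06 for PD16 against PD14 in log2(FPKM + 1) without the filter, 95% interval -0.01 to 0.13, adjusted p = 0.395 in limma). The antisense genes Ptgs2os and Ptgs2os2 were each listed at 0 in 8 of 9 libraries.

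The prostaglandin E synthases carried 2 of the highest levels of the group. Ptges (chr2:30889471-30929863, minus strand), the microsomal synthase usually coupled to Ptgs2, was at 56.7, 60.1 and 60.9 FPKM on PD14, 73.3, 63.5 and 63.9 on PD15, and 62.2, 65.2 and 61.5 on PD16. Each library of the later days was above every PD14 library, and the PD15 and PD16 libraries overlapped. The mean was higher than on PD14 by 13.0% on PD15 and by 6.34% on PD16. Neither difference passed the test (log2 difference 0.17, 95% interval 0.01 to 0.33, adjusted p = 0.293 for PD15, and 0.09, -0.07 to 0.24, adjusted p = 0.489 for PD16, limma). Without PD15 replicate 1, the highest library, the PD15 difference was 0.10. Between PD16 and PD15 the log2 difference was -0.08 (adjusted p = 0.655).

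Ptges3 (chr10:128058954-128077272, plus strand), the cytosolic synthase that is also the HSP90 co-chaperone p23, was at 72.4, 64.3 and 60.1 FPKM on PD14, 70.4, 71.0 and 68.8 on PD15, and 87.0, 73.0 and 68.1 on PD16. The highest library was from PD16, and all 3 days overlapped. The log2 difference was 0.21 for PD16 against PD14 (95% interval -0.01 to 0.43, adjusted p = 0.245) and 0.10 for PD15 against PD14 (-0.12 to 0.32, adjusted p = 0.684). Without PD16 replicate 1 the first was 0.11, and without PD14 replicate 3 the second was 0.04. Ptges2 (chr2:32395896-32405772, plus strand), the second membrane-associated synthase, was at 5.58, 4.98 and 5.66 FPKM on PD14, 5.31, 5.24 and 5.93 on PD15, and 5.66, 5.93 and 4.97 on PD16. The days overlapped throughout, and the 95% intervals of its log2 differences from PD14 were -0.16 to 0.20 on PD15 and -0.15 to 0.20 on PD16, so that changes within these bounds are not resolved. Of the summed FPKM of the 3 prostaglandin E synthases, Ptges3 made up 47.2% to 56.2%, Ptges 40.2% to 49.2% and Ptges2 3.56% to 4.47% per library, and the shares of the days were not told apart (exact permutation test of 3 against 3 libraries, p = 0.2 to 0.8 over the 9 comparisons, unadjusted, where 0.1 is the smallest p possible).

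Ptgds (chr2:25466709-25470046, minus strand), the lipocalin-type prostaglandin D synthase, was the gene of the 10 with the largest differences in the downward direction. It was at 5.12, 4.44 and 6.85 FPKM on PD14, 3.12, 3.54 and 3.69 on PD15, and 3.39, 3.82 and 4.41 on PD16. All PD14 libraries lay above all libraries of both later days, though the nearest values of PD14 and PD16, 4.44 and 4.41, almost met. Its mean differed from that of PD14 by -36.9% on PD15 and by -29.2% on PD16. The log2 difference was -0.52 for PD15 (95% interval -0.82 to -0.23, unadjusted p = 0.00315, adjusted p = 0.123) and -0.40 for PD16 (-0.70 to -0.10, unadjusted p = 0.0146, adjusted p = 0.118, limma), so neither passed the test after adjustment over all genes. Without PD14 replicate 3, the highest library, the PD16 difference was -0.25, and over all 9 fits without 1 library it ran from -0.51 to -0.25.

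Blood cell, endothelial and fat marker lists were lower on PD15 than on PD14 in every library, as Ptgds was. The summed level of 5 blood cell markers was 105 to 147 FPKM on PD14 and 46.4 to 63.2 on PD15 (all 5 lower by fitted means, median log2 difference -1.02, 4 at an unadjusted p under 0.05 and 1 called, Hba-a1), that of 5 endothelial markers 61.7 to 66.0 and 57.5 to 59.6 (0 called by limma or by voom on recovered fragments, 1 at an unadjusted p under 0.05), and that of the fat markers 6.31 to 7.74 and 4.14 to 4.42 (1 of 1 tested, Plin1, called lower). Adipoq and Lep, which define fat cells, were at or near 0 (means of 0.0393 and 0.00255 FPKM). The 7 theca and interstitial markers overlapped in their sums (1590 to 2230 FPKM on PD14 and 1160 to 1750 on PD15), while 6 of 7 were lower on PD15 by fitted means, with a median log2 difference of -0.41 (0 called by limma or voom, 3 at an unadjusted p under 0.05, namely Cyp11a1, Lhcgr and Fabp3). The 8 oocyte markers were higher on PD15 (1090 to 1350 against 1430 to 1530 FPKM, 1 called, Nlrp5, and by voom Bmp15 as well). The granulosa sums overlapped, and 4 of 8 granulosa markers had an unadjusted p under 0.05, Inhba (-0.92) and Cyp19a1 (-0.62) with lower means and Amh (0.45) and Foxl2 (0.27) with higher ones. Limma called 0 of these 8, and voom called Amh. The surface epithelium and oviduct sums overlapped, with 2 of 4 tested markers lower and 0 called. Below the filter, Pax8 (-74.1%) and Foxj1 (-49.6%) were lower on PD15 without overlap, while Ovgp1 (-24.2%) and Krt7 (0.433%) overlapped. The stromal sums overlapped as well, with 4 of 6 markers lower and 1, Lum (-0.55), at an unadjusted p under 0.05. The part of these cells in the Ptgds values was not tested.

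None of the receptors among the 10 genes passed the test between days. Ptger2 (chr14:44988195-45003820, plus strand), the EP2 receptor that raises cyclic AMP, was at 2.85, 2.48 and 2.40 FPKM on PD14, 2.30, 2.86 and 2.57 on PD15, and 2.58, 2.50 and 2.82 on PD16. The days shared the same range, and the 95% intervals of the log2 difference from PD14 were -0.19 to 0.19 on PD15 and -0.17 to 0.22 on PD16. Ptger4 (chr15:5206661-5244187, minus strand), the EP4 receptor, which also raises cyclic AMP, was at 2.20, 1.85 and 1.76 FPKM on PD14, 2.10, 1.95 and 2.09 on PD15, and 1.94, 1.44 and 2.17 on PD16. The highest and the lowest library were from PD14 and PD16, and the log2 differences from PD14 were 0.06 on PD15 (95% interval -0.19 to 0.31) and -0.05 on PD16 (-0.30 to 0.20). Ptger2 stood above Ptger4 in all 9 libraries, at 1.09 to 1.74 times its FPKM, and their ranges did not overlap. Of the Ptger4 exons, 82 bases are shared with the gene Ttc33 on the opposite strand, which was at 12.1 to 15.6 FPKM, and no source names strand-specific counting. Another overlap, of 1015 bases (15.3% of the exons), is with the opposite-strand pseudogene Gm15937, listed at 0 in all libraries. The Ptger2 exons share at most 246 bases (4.7%) with any 1 gene. Whether fragments in these stretches were lost was not tested, so the order of Ptger2 and Ptger4 holds for the listed FPKM only.

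Ptgfr (chr3:151796502-151837630, minus strand), the receptor of prostaglandin F2 alpha, was at 0.247, 0.153 and 0.145 FPKM on PD14, 0.249, 0.254 and 0.339 on PD15, and 0.266, 0.234 and 0.255 on PD16. The PD14 and PD15 libraries did not overlap, by the narrow step from 0.247 to 0.249, and those of PD14 and PD16 did. These levels rested on 20 to 66 fragments a library. In the fit without the filter the log2(FPKM + 1) difference for PD15 against PD14 was 0.12 (95% interval 0.01 to 0.23, adjusted p = 0.456).

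Hpgd (chr8:56294585-56321043, plus strand), the enzyme that oxidizes prostaglandin E2 and F2 alpha to inactive keto forms, was the gene of the group that passed the test, in a call that depended on the filter and on single libraries. It was at 28.2, 31.7 and 32.6 FPKM on PD14, 31.1, 38.4 and 39.2 on PD15, and 61.9, 46.0 and 48.2 on PD16. The PD16 libraries lay above all others, and the lowest PD15 library lay within the PD14 range. The values rested on 1116 to 2482 fragments a library. The mean rose from 30.8 ± 2.27 FPKM (SD, n = 3) on PD14 to 52.0 ± 8.61 (SD, n = 3) on PD16, which is 68.9% higher, and stood at 36.2 ± 4.47 (SD, n = 3) on PD15. In limma the log2 difference for PD16 against PD14 was 0.73 (95% interval 0.45 to 1.01, adjusted p = 0.02), and the test of any difference among the days gave an adjusted p of 0.0368, a call kept in 2 of 9 fits without 1 library (those without PD15 replicate 1 and PD15 replicate 3). The difference ranked 81 by size among the 366 genes called higher and exceeded that of 99.1% of the genes tested. For PD15 against PD14 the log2 difference was 0.22 (-0.06 to 0.50, adjusted p = 0.443), and for PD16 against PD15 it was 0.51 (0.23 to 0.79, adjusted p = 0.104), so the step to which the rise belongs was not resolved. PD16 replicate 1 held the highest value, and without it the log2 difference of PD16 from PD14 was 0.60 with an adjusted p of 0.0565. The call was lost as well without the filter on low values (0.73, adjusted p = 0.0588), without PD14 replicate 1 (0.67, adjusted p = 0.0646) and without PD14 replicate 3 (0.77, adjusted p = 0.0611).

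Macrophage, endothelial, mast cell and fat marker lists had PD16 libraries apart from those of PD14, as Hpgd did. The summed level of 6 macrophage markers was higher on PD16 (21.8 to 23.4 against 19.3 to 21.1 FPKM, 0 called by limma or voom and 0 at an unadjusted p under 0.05). That of 5 endothelial markers was lower (54.8 to 57.6 against 61.7 to 66.0 FPKM, 1 called, Tie1). That of 4 mast cell markers was lower (1.2 to 2.07 against 2.9 to 5.75 FPKM, 0 of 2 tested genes called by limma or voom and 2 at an unadjusted p under 0.05). That of 4 fat markers was lower (3.96 to 5.56 against 6.31 to 7.74 FPKM, Plin1 called lower), with Adipoq, Cidec and Lep at or near 0. The granulosa sums of the same days overlapped (2720 to 3370 FPKM on PD14 and 2710 to 3210 on PD16), as did those of the oocyte, theca, stromal, smooth muscle, surface epithelium and blood cell lists. Single genes of these lists moved even so. All 5 smooth muscle markers were higher on PD16 by fitted means (median log2 difference 0.25), with Cnn1 called higher (0.61, adjusted p = 0.0348). Of the 8 granulosa markers, 4 had an unadjusted p under 0.05. Amh was called higher (0.47, adjusted p = 0.0223) and Cyp19a1 lower (-0.84, adjusted p = 0.0316), and Inhba (-1.04, adjusted p = 0.0637) was called lower by voom alone. Fshr had a higher mean (0.31, adjusted p = 0.185) and was called by neither. All 5 blood cell markers were lower by fitted means (median -0.52, 0 called by limma or voom), with 2 at an unadjusted p under 0.05, the near-identical copies Hba-a1 and Hba-a2, whose reads can be split between them. Of the 8 oocyte markers, 6 were lower and 2 higher on PD16 by fitted means (median -0.23), and 5 had an unadjusted p under 0.05. These were Zp1, Zp2, Zp3 and Ooep, with lower means, and Bmp15, which alone was called by limma (0.39, higher, adjusted p = 0.0331), while voom also called Zp2 and Zp3 lower. Of the 7 theca and interstitial markers, 5 were lower (median -0.33, 0 called by limma or voom, 2 at an unadjusted p under 0.05). Of the 4 tested surface epithelium and oviduct markers, 3 were higher, and Krt19 was called lower (-0.42, adjusted p = 0.0335). The markers of this list below the filter had lower means on PD16. Pax8 (-70.2%) and Foxj1 (-51.5%) did not overlap PD14, and Ovgp1 (-32.1%) and Krt7 (-12.0%) did. Between PD16 and PD15, where the Hpgd libraries also stood apart, the oocyte sums were lower on PD16 (1030 to 1110 against 1430 to 1530 FPKM). All 8 oocyte markers were lower by fitted means (median -0.49), 7 at an unadjusted p under 0.05. Limma called Zp2 and Nlrp5, and voom also Zp3 and Ooep. The mast cell sums were lower too (1.2 to 2.07 against 2.21 to 4.99 FPKM, 0 called by limma or voom). The sums of the other cell lists overlapped between these days. By fitted means all 5 smooth muscle, 5 of 6 macrophage and 4 of 5 blood cell markers were higher on PD16 (medians 0.22, 0.14 and 0.46). Of the 8 granulosa markers, 4 were higher and 4 lower. Without overlap, Fshr (39.3%), Nr5a2 (13.7%), Csf1r (15.3%) and Hba-a1 (84.4%) were higher and Foxl2 (-19.1%) lower, beside 19.6% of all genes tested. Limma and voom called 0 of these markers. The part of these cells in the Hpgd values was not tested.

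**Figure D2:**
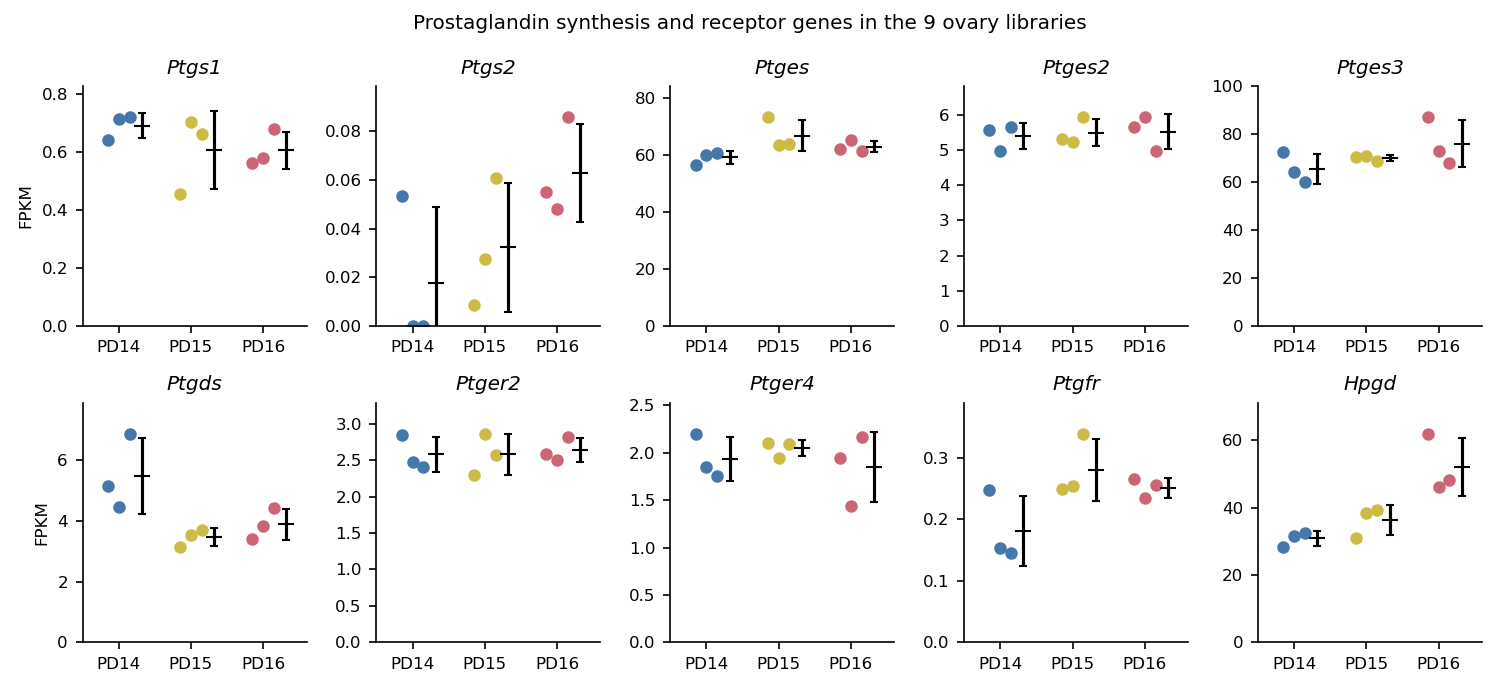
FPKM of the 10 genes in each of the 9 libraries, with 1 panel a gene, an axis from 0 in each panel, 1 coloured point a library and black bars for the mean ± SD of the 3 libraries of a day. The PD16 libraries of Hpgd (46.0 to 61.9) lie above all others, the PD14 libraries of Ptgds (4.44 to 6.85) lie above those of the later days, and the days of Ptgs1, Ptgs2, Ptges2, Ptges3, Ptger2 and Ptger4 overlap.

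In the comparisons across all genes, 1 of the 7 tested genes passed the test between PD16 and PD14 (Hpgd, higher), against 4.25% of all 15495 genes, and 2 (Hpgd and Ptgds) had an unadjusted p under 0.05 (22.8% of all genes). Between PD15 and PD14 limma called 0 of 7, against 0.678% of all genes, with 2 (Ptges and Ptgds) at an unadjusted p under 0.05 (14.7% of all genes). Between PD16 and PD15 it called 0 of 7, against 0.729%, with 1 (Hpgd) at an unadjusted p under 0.05 (14.1% of all genes). Voom on recovered fragments called 0, 1 and 0 of the 7 for PD15 against PD14, PD16 against PD14 and PD16 against PD15, against 1.14%, 6.08% and 1.23% of the 14686 genes it covered. The test of any difference among the days called 1 of 7, against 3.03% of all genes. Of the 7 tested genes, the libraries of PD15 and PD14 did not overlap for 2 (Ptges and Ptgds, with 20.6% of all genes tested apart in this way). Between PD16 and PD14, 3 genes stood apart (Ptges, Ptgds and Hpgd, against 28.5%), and between PD16 and PD15 it was 1 (Hpgd, against 19.6%). The median log2 difference over the 7 was 0.06 for PD15 and 0.02 for PD16 against PD14, beside 0.01 for all genes tested in both comparisons.

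**Figure D3:**
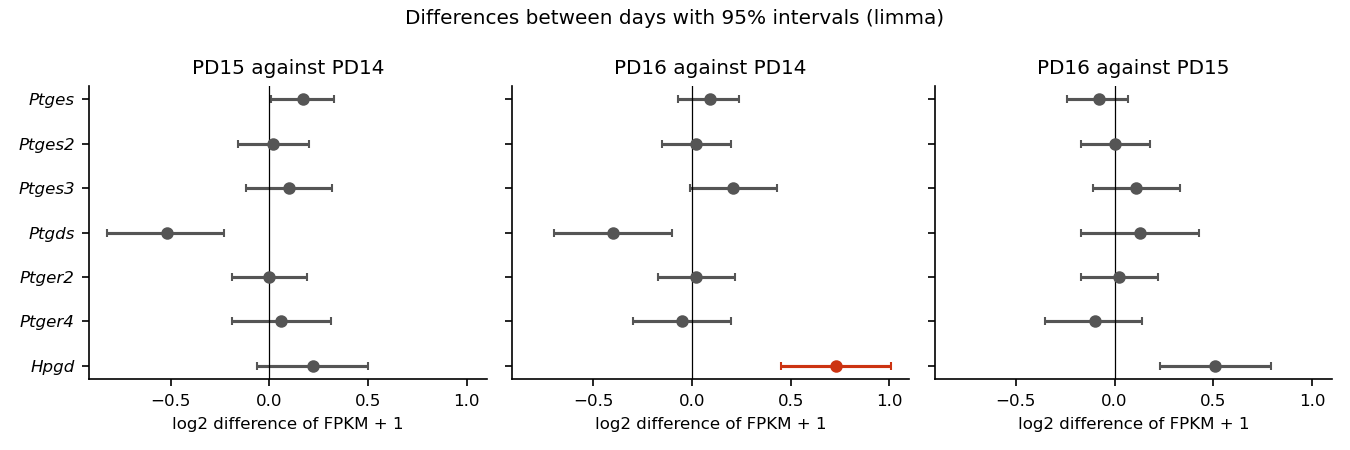
Log2 difference of FPKM + 1 with its 95% interval from limma for the 7 tested genes in the 3 comparisons of days, with the difference that passed the test in red. Hpgd stands at 0.73 (0.45 to 1.01) for PD16 against PD14, Ptgds lies below 0 in both comparisons with PD14, and the receptor intervals include 0.

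The level of Hpgd, a gene of breakdown, was set against that of Ptges, 1 of the 3 prostaglandin E synthases. The ratio was chosen after the data were seen. Since the mean of Ptges was 6.34% higher on PD16 than on PD14, the ratio largely repeats the Hpgd values. Its test is therefore no separate support. Ptges3, which the ratio leaves out, had a mean 15.9% higher on PD16 than on PD14. Hpgd per Ptges was 0.498, 0.527 and 0.535 on PD14, 0.424, 0.605 and 0.614 on PD15, and 0.995, 0.706 and 0.784 on PD16. All PD16 ratios lay above all others, and the PD15 ratios surrounded those of PD14. The mean ratio was 0.520 ± 0.0191 on PD14, 0.548 ± 0.107 on PD15 and 0.828 ± 0.150 on PD16 (SD, n = 3, exact permutation test, two-sided, p = 0.1 for PD16 against either day, the smallest p that 3 against 3 libraries allow, and p = 0.7 for PD15 against PD14, unadjusted). Ptges remained the more abundant transcript in all 9 libraries.

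Other genes of transport and breakdown were read from a list of 6 tested genes. Zadh2, also called prostaglandin reductase 3, which reduces keto-prostaglandins of the kind that Hpgd makes, was at 58.2, 60.8 and 57.9 FPKM on PD14, 67.5, 69.7 and 67.0 on PD15, and 82.4, 77.9 and 79.0 on PD16. The 3 days did not overlap, and each day stood above the one before it. Zadh2 rose from PD14 to PD16 by a log2 difference of 0.43 (95% interval 0.31 to 0.55, adjusted p = 0.00921, limma), and the steps through PD15 did not pass the test alone (0.20, adjusted p = 0.131, and 0.23, adjusted p = 0.0923). The call held in all 9 fits that each left out 1 library (adjusted p = 0.0143 to 0.0404). Of the remaining genes of this list, Ptgr1, a further prostaglandin reductase, averaged 13.9 FPKM, Cbr3 10.2, Ptgr2 7.74, the efflux pump Abcc4 3.13 and the prostaglandin transporter Slco2a1 2.75. These 5 were lower on PD16 than on PD14 by their fitted means, and none passed the test.

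**Figure D4:**
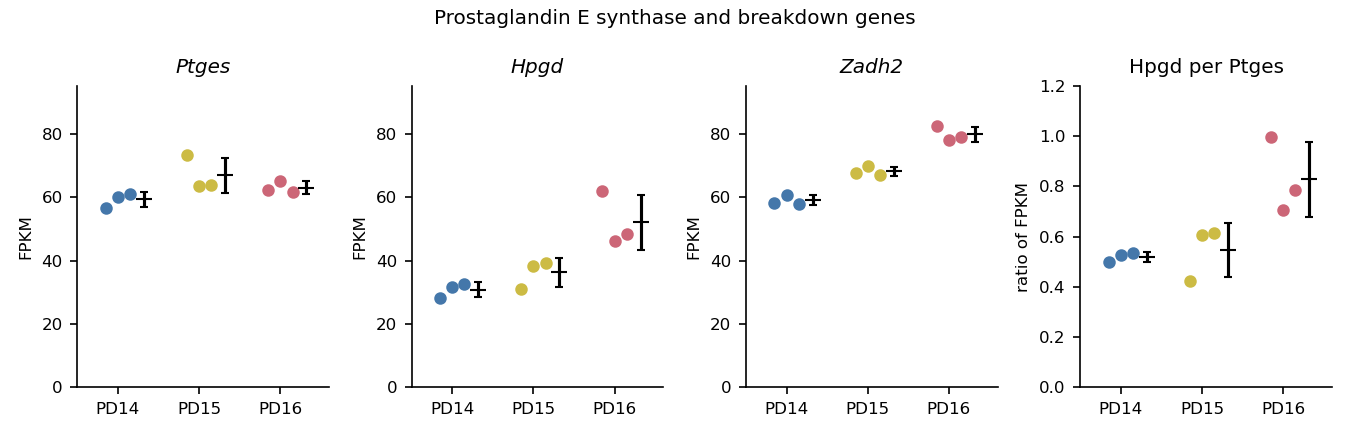
FPKM of Ptges, Hpgd and Zadh2 on a common axis from 0, and the ratio of Hpgd to Ptges, in each of the 9 libraries, with 1 point a library and bars for the mean ± SD of the 3 libraries of a day. Hpgd (mean 30.8 to 52.0) and Zadh2 (59.0 to 79.8) had higher means on PD16 than on PD14, and the mean of Ptges was 59.2 on PD14, 66.9 on PD15 and 63.0 on PD16.

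The other receptors ran from scarce to moderate. Tbxa2r, the thromboxane receptor, was at 5.66, 3.95 and 3.74 FPKM on PD14, 3.79, 4.55 and 3.36 on PD15, and 2.49, 2.69 and 2.50 on PD16. The PD16 libraries lay below all others, and those of PD14 and PD15 overlapped. Tbxa2r fell by 0.60 on the log2 scale from PD14 to PD16 (95% interval -0.90 to -0.30, adjusted p = 0.0413). The call was kept in 2 of 9 fits without 1 library, and the adjusted p ran from 0.0436 to 0.121. The value was closest to 0 without PD14 replicate 1 (-0.44, adjusted p = 0.0858). The endothelial and mast cell markers were lower on PD16 as well (values above), and their part in this difference was not tested. Ptger3, the EP3 receptor, averaged 1.43 FPKM, and its log2 difference for PD16 against PD14 was 0.17 (-0.06 to 0.40, adjusted p = 0.362). Ptger1 averaged 0.148 FPKM, Ptgdr2 0.138, Ptgir 0.0926 and Ptgdr 0.0414, all below the filter. Ptgfrn, a membrane protein that binds to the Ptgfr product and is no prostaglandin receptor itself, averaged 18.3 FPKM.

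Among the other terminal synthases, the carbonyl reductase Cbr1, which can turn prostaglandin E2 into F2 alpha, averaged 39.7 FPKM, and the prostacyclin synthase Ptgis 32.6. The aldo-keto reductases Akr1b8 and Akr1b3, the second of which can make prostaglandin F2 alpha, averaged 24.2 and 22.9 FPKM, and the prostamide synthase Fam213b 14.7. The hematopoietic prostaglandin D synthase Hpgds and the thromboxane synthase Tbxas1 averaged 0.130 and 0.0713 FPKM, so that Ptgds was the more abundant transcript of the D synthases. Akr1b10, a further aldo-keto reductase, was at 6.50, 7.13 and 7.47 FPKM on PD14, 4.67, 5.31 and 4.98 on PD15, and 5.87, 6.57 and 6.53 on PD16. The PD15 libraries lay below all others, and those of PD14 and PD16 overlapped. Akr1b10 fell by 0.42 on the log2 scale from PD14 to PD15 (95% interval -0.58 to -0.26, adjusted p = 0.0397). This call was lost in each of the 9 fits without 1 library (adjusted p = 0.0506 to 0.141), with differences of -0.47 to -0.38.

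Of the genes that release arachidonic acid, 9 were tested. The most abundant were the phospholipases Pla2g4c, at a mean of 46.8 FPKM, Pla2g15 at 11.5, Pla2g4a, the cytosolic phospholipase A2 that feeds the cyclooxygenases, at 10.4, Pla2g6 at 8.50 and Pla2g12a at 6.26. Pla2g4c was at 47.8, 43.0 and 52.2 FPKM on PD14, 53.3, 50.4 and 51.4 on PD15, and 41.6, 41.0 and 40.5 on PD16. Its PD16 libraries lay below all others, and the log2 difference for PD16 against PD15 was -0.33 (95% interval -0.49 to -0.17, adjusted p = 0.0749). All 8 oocyte markers were lower in the same comparison (values above), and the part of oocytes in this difference was not tested. Mgll, the monoacylglycerol lipase that frees arachidonic acid from 2-arachidonoylglycerol, was at 4.52, 4.70 and 4.63 FPKM on PD14, 4.45, 4.47 and 4.74 on PD15, and 5.83, 5.49 and 5.64 on PD16. Its PD16 libraries lay above all others. Mgll rose by 0.24 on the log2 scale from PD14 to PD16 (0.12 to 0.37, adjusted p = 0.0411), a call that remained in 1 of 9 fits without 1 library (adjusted p = 0.0448 to 0.136).

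Over the 24 tested genes of these 4 lists, limma called 0 higher and 1 lower for PD15 against PD14 (Akr1b10), and 2 higher (Zadh2 and Mgll) and 1 lower (Tbxa2r) for PD16 against PD14. These counts stand beside 0.678% and 4.25% of all genes tested, and 4 and 6 of the 24 had an unadjusted p under 0.05, beside 14.7% and 22.8% of all genes. For PD16 against PD15 it called 0, beside 0.729%, with 6 of 24 at an unadjusted p under 0.05 (14.1% of all genes), and voom on recovered fragments called 0 as well. In the comparisons with PD14, voom called the same genes as limma, beside 1.14% (PD15) and 6.08% (PD16) of the genes it covered. The median log2 difference of the 24 genes was -0.09 on PD15 and -0.14 on PD16 against PD14, with 6 genes higher and 18 lower by fitted means in each. The corresponding median of all genes tested was 0.01. The 2 comparisons share the PD14 libraries.

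Of 9 genes that prostaglandin E2 and the ovulatory signal raise in cumulus and granulosa cells, 3 exceeded the filter. The hyaluronan-binding proteoglycan Vcan averaged 28.5 FPKM, the protease Adamts1 5.55 and the pentraxin Ptx3 2.04. None was called by limma or voom in any comparison, and 1, Adamts1 between PD16 and PD15, had an unadjusted p under 0.05 (log2 difference 0.21, adjusted p = 0.291). The remaining 6 were below the filter, among them the hyaluronan synthase Has2 at a mean of 0.170 FPKM, Tnfaip6 at 0.373 and the EGF-like ligands Areg at 0.0372 and Ereg at 0.543. Tnfaip6, a hyaluronan-binding protein of the cumulus matrix, was at 0.460 to 0.574 FPKM on PD14 and at 0.142 to 0.270 on PD15, without overlap (61 and 26 fragments over 3 libraries each), and PD16 overlapped both. Ereg was at 0.381 to 0.481 FPKM on PD15 and 0.539 to 0.752 on PD16, without overlap. For both differences the exact permutation test gave p = 0.1, two-sided and unadjusted, the smallest p that 3 against 3 libraries allow. Libraries that stand apart always give this p, so it adds nothing to the lack of overlap. Of all genes tested, 20.6% stood apart between PD15 and PD14 and 19.6% between PD16 and PD15.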

How the data were processed

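RNA of mouse ovaries was prepared by the authors with TRIzol, made into libraries from 1 µg (NEBNext Ultra kit) and read on an Illumina HiSeq instrument, with 3 libraries each for PD14, PD15 and PD16, grouped by the labels. The authors deposited FPKM in a table per library, and the submitters' processing notes name HISAT2 2.0.5 and mm10. The counter and the annotation are not given in the sources used here. Of the identifiers, 96.8% were found in GENCODE M21, which gave exon lengths and coordinates. FPKM multiplied by exon length and depth gave whole fragments (within 0.05) for 95.3% to 96.0% of low values, and for 89.6% of all values under 500 fragments. It gave them in all 9 libraries for 7 members, in 5 libraries for Ptges and 6 for Ptges3 (offsets of at most 0.146), and in 0 for Ptger2. The fragments of these 3 are approximate and not printed.

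The members and lists were chosen with earlier results of these data known. All 10 members were named in every library, with the pathway's receptors and terminal synthases, those of its other genes that passed the test or were among the 5 most abundant of their list, and the tested response genes. Marker and other genes were named beside a result after their values were seen. Tests used limma 3.58.1 (R 4.3.3) with an intensity trend on log2(FPKM + 1) over all 9 libraries. A gene entered if its mean exceeded 1 FPKM on any day (15495 genes), with Benjamini-Hochberg adjustment, two-sided, at 0.05. Fold changes on this scale understate those of low genes. Single values were compared by an exact permutation test of 3 against 3 libraries. Voom on recovered fragments was added after the data were seen and covered the 14686 genes with a length. The fit was tested on simulated data. No 2 libraries were identical. Tables and motif searches used Python 3.11.15, pandas 2.3.3, NumPy 2.4.6, SciPy 1.17.1 and Matplotlib 3.10.9. Promoters came from RefSeq (GRCm38.p6), which held all 10 members. Alternatives were other pseudocounts, filters, scalings and limma settings, the replicate block and each library left out.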

Additional observations from a re-analysis of the deposited data

How the results depend on the processing

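The rise of Hpgd from PD14 to PD16 kept its log2 difference of 0.73 but missed the threshold without a filter on low values (adjusted p = 0.0588), where 0 members were called, and it passed with voom on recovered fragments (0.75, adjusted p = 0.00722). Leaving out 1 library at a time gave 0.60 to 0.81 (adjusted p = 0.0225 to 0.0646), with 6 of 9 fits past the threshold and 0 to 1 members called, and in the test of any difference 0 to 1. Without the filter that test also called 0 members. Same-numbered libraries of different days did not deviate together (r = -0.21 to 0.16, over 0.1 in 2 of 9 pairs, with 2 of 9 libraries closest to their own number), so the numbers pair nothing. With the replicate block, 24, 227, 56 and 127 genes were called for PD15 against PD14, PD16 against PD14, PD16 against PD15 and any difference (105, 659, 113 and 469 without it), and 0 members in PD16 against PD14 and in the test of any difference (Hpgd 0.73, adjusted p = 0.0556).

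Counts over all genes moved more. In the same order they were 29, 172, 24 and 95 without a filter. A filter at a mean FPKM above 5 gave 63 for PD15 against PD14, TPM scaling gave 397 for PD16 against PD14 and 309 for any difference, and fitting only the days compared gave 47 for PD15 and 320 for PD16 against PD14. Voom gave 168 for PD15 against PD14, 181 for PD16 against PD15 and 731 for any difference. Leaving out 1 library gave 3 to 92, 92 to 660, 14 to 125 and 100 to 354. The lowest of these came without PD15 replicate 1 (3 and 14), PD16 replicate 1 (92) and PD14 replicate 3 (100). The cause of these shifts was not tested.

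Of 393 alternative fits of differences of members, 365 kept direction and side of the threshold, 5 lost the call of Hpgd and 23 changed sign, all of them uncalled differences near 0. Among these, the difference of Ptger2 for PD15 against PD14 was 0 with a pseudocount of 0.1 and -0.01 with TPM scaling and with voom, and that of Ptges2 for PD16 against PD15 was 0 with TPM scaling and voom. Leaving out 1 library, Ptger2 ran from -0.06 to 0.06, -0.01 to 0.08 and -0.03 to 0.08, Ptges2 from -0.03 to 0.05, -0.03 to 0.09 and -0.04 to 0.07 for PD15 and PD16 against PD14 and PD16 against PD15, and Ptger4 from -0.13 to 0.06 and -0.19 to 0 for the last 2 of these. Akr1b10, Mgll and Tbxa2r lost their calls without the filter (adjusted p = 0.109, 0.0771 and 0.109), with TPM scaling (0.0698, 0.102 and 0.0581), with only the days compared (0.08, 0.0762 and 0.0631) and with the replicate block (0.0556, 0.0933 and 0.0669), and Mgll also with the filter at 5 (0.0581). Voom on recovered fragments called Akr1b10 for PD15 against PD14, and Mgll and Tbxa2r for PD16 against PD14. Zadh2 was called in all alternatives run. Depth limits Ptgs2, Ptgfr and Ptgs1, which rest on at most 74 fragments a library.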
